A study of Mus musculus with 24 samples.

Results

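Apoe and the apolipoprotein C genes beside it, Apoc1 and Apoc2, were followed in microglia sorted from 24 mouse retinas. The 3 genes were chosen by name from the 47729 gene IDs of the deposited tables, 1 table per retina, and each matched 1 row. The groups were 5 DBA/2J mice of 12 months with the genotype Gpnmb-/- Tyrp1b-/- (10 retinas) and 5 DBA/2J mice of 6 months with the same genotype, labelled as early disease (1 retina each). They were set against 5 DBA/2J Gpnmb+ mice of 12 months with the genotype Gpnmb+/+ Tyrp1b-/- (9 retinas), so that the DBA/2J background and the labelled Tyrp1b-/- genotype were common to all 15 animals. Of the 12-month DBA/2J retinas, the labels grade 3 as mild (from 2 animals), 4 as moderate (from 3) and 3 as severe (from 2). DBA/2J is an inbred strain with an age-related pigmentary glaucoma, and Gpnmb encodes a membrane glycoprotein of pigment cells and macrophages. Glaucoma and the lack of Gpnmb cannot be told apart in the comparison of strains, nor disease and age in the comparison of 12 with 6 months. The cells, resident macrophages of nervous tissue called microglia, were gated as CD11b+, Ly6c- and Fcrls+, and 100 to 600 cells were taken per retina.

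Apolipoprotein E, the product of Apoe, is a secreted protein that carries cholesterol and phospholipids between cells and is taken up through receptors of the LDL receptor family. In neural tissue it is made mainly by astrocytes and, in the retina, by Müller glia, and microglia make more of it around damaged or dying neurons. The sterol-sensing liver X receptors (LXR) are known to raise transcription of Apoe and of the C genes next to it, which encode small proteins that exchange between lipoprotein particles. Apolipoprotein C-I, from Apoc1, slows the receptor uptake of such particles, and apolipoprotein C-II, from Apoc2, is the cofactor of lipoprotein lipase.

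The genes lie in a cluster on the reverse strand of chromosome 7 (GRCm38), and the span from Apoe to Apoc2 is 27610 bases. Apoe takes 19696109 to 19699188, Apoc1 19689481 to 19692660, and Apoc2 19671579 to 19677941. Between Apoc1 and Apoc2 lies Apoc4 (19678083 to 19681479), and the annotated gene Gm44805 (19671584 to 19681423) overlaps Apoc2 and Apoc4. Reads from the shared stretch could have been split among these 3 by the authors' counting. Gm44805 had 0 counts in all 24 retinas.

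The reference set of start-site windows held no entry for Apoc1. Windows are shown for Apoe and Apoc2, the members that entered the test between groups. Each runs from 250 bases before to 50 bases after an annotated start in RefSeq (GRCm38.p6, read along the gene, 5′ to 3′). The Apoe window is chr7:19699139-19699438, at the most upstream of 3 annotated starts, and the Apoc2 window is chr7:19677892-19678191, both on the reverse strand. Capitals mark matches to 6 motifs searched on both strands: the TATA box TATAAA, the CCAAT box, the GC box GGGCGG, the nuclear receptor half-site AGGTCA, the core GAGGAA bound by the macrophage factor PU.1, and the AP-1 site TGAGTCA.

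Apoe: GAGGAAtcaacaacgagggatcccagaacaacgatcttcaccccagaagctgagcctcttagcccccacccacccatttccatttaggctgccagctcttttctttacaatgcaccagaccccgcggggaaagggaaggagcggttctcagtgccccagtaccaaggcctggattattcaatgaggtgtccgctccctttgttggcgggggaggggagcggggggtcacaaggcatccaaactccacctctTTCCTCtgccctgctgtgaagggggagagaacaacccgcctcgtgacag
Apoc2: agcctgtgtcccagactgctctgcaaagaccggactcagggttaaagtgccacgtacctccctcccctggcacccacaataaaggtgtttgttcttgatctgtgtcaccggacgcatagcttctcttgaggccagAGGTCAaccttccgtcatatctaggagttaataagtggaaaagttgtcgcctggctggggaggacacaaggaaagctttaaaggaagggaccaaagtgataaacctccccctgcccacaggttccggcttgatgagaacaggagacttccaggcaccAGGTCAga

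The Apoe window held GAGGAA at window position 1 and, on the other strand, at position 252, where the letters read as its complement. The Apoc2 window held AGGTCA at positions 136 and 293. Among 32817 start-site windows of the same length, 28.3% held GAGGAA and 16.3% held AGGTCA, so both motifs were common. Neither printed window held the TATA box (13.6% of all windows), the CCAAT box (37.4%), the GC box (35.6%) or the AP-1 site (5.2%). The matches overlapped no other motif. Of the other 2 annotated Apoe starts, whose windows are not printed, one had TATAAA on both strands, at window positions 155 and 151, and one had GAGGAA at position 119.

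Depth sets how high a level a count of 0 allows, which concerns the C genes, since Apoe had counts in every retina. Libraries of 12-month DBA/2J retinas held between 1706745 and 20081047 counts, those of 6 months between 12043862 and 17992997, and those of Gpnmb+ between 977873 and 14845259. Counts were found for 3466 to 16706 genes per retina, and 5 Gpnmb+ retinas, of animals 1, 2 and 3, had fewer than 10000. A count of 0 allowed up to 0.149 to 1.76 CPM (counts scaled to a library total of 1000000) in 12-month DBA/2J retinas, 0.167 to 0.249 CPM in those of 6 months, and 0.202 to 3.07 CPM in Gpnmb+ retinas, for counting error only. Markers of the labelled cell type were present: all 12 microglia identity genes, among them Csf1r and Cx3cr1, had counts in each group, and they summed to between 27890 and 38871 CPM per animal in 12-month DBA/2J, 33943 and 39098 at 6 months, and 16991 and 35815 in Gpnmb+.

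Apoe was higher in 12-month DBA/2J microglia than in most Gpnmb+ retinas. It was also higher in each 12-month DBA/2J retina than in any at 6 months, though by a narrow gap. In 12-month DBA/2J retinas Apoe had a lowest, median and highest level of 2367, 8238 and 32974 CPM. At 6 months the values were 2320, 2341, 868, 976 and 1514 CPM in animals 1 to 5. In Gpnmb+ retinas the lowest, median and highest were 187, 1234 and 5248 CPM. The 10 DBA/2J retinas of 12 months thus lay above the 5 of 6 months without overlap, and 8 of the 10 lay above the highest Gpnmb+ retina. The gap to 6 months was narrow, from 2341 to 2367 CPM. These 10 retinas are the eyes of 5 animals. How many genes separate in this way was computed per animal only, as given below for 12 against 6 months. The separation of retinas is therefore not read as particular to Apoe. Between 6-month DBA/2J and Gpnmb+ retinas the levels overlapped, with 3 of 9 Gpnmb+ retinas above the highest 6-month one.

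As a share of all counts, Apoe took 0.237 to 3.30% of a 12-month DBA/2J library, 0.0868 to 0.234% at 6 months and 0.0187 to 0.525% of a Gpnmb+ library. Per length, in deposited TPM (a level per transcript length, scaled to a total of 1000000), Apoe ranked 3 to 20 among all genes in 12-month DBA/2J retinas (median rank 5). It ranked 13 to 49 at 6 months (median rank 30) and 7 to 336 in Gpnmb+ retinas (median rank 31). The median TPM was 11902 in 12-month DBA/2J, 2427 at 6 months and 2053 in Gpnmb+.

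**Figure D1:**
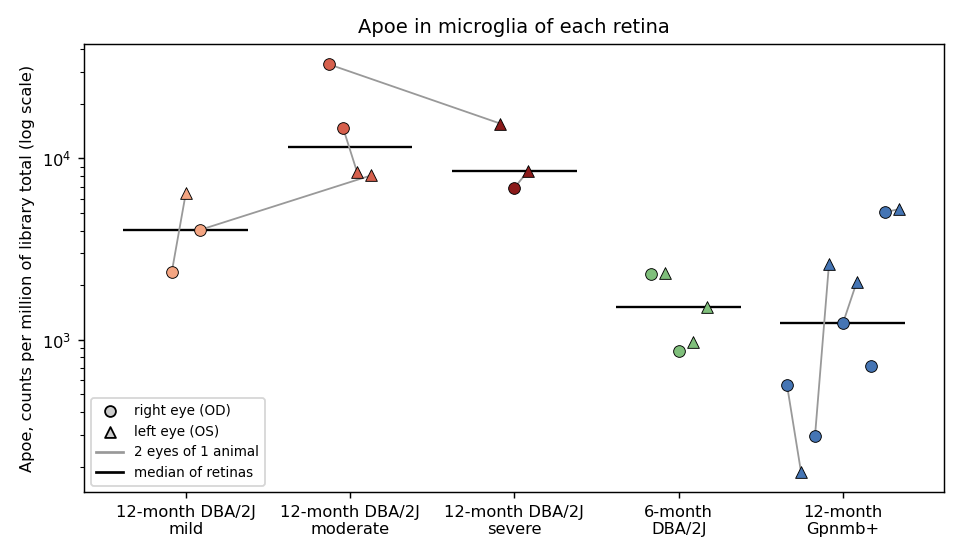
Apoe in each of the 24 retinas, in CPM of the library total on a log axis, with the 12-month DBA/2J retinas split by grade, then the 6-month DBA/2J and the 12-month Gpnmb+ retinas. Circles are right eyes (OD), triangles left eyes (OS), grey lines join the eyes of an animal and black bars are medians of retinas; the 7 moderate and severe retinas all lie above the highest Gpnmb+ retina at 5248 CPM.

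The first comparison asked how DBA/2J microglia differ from those of Gpnmb+ mice of the same age. With the eyes of an animal summed, Apoe had 21696, 12600, 7976, 3240 and 6280 CPM in 12-month DBA/2J animals 1 to 5, against 361, 2125, 1736, 715 and 5153 CPM in Gpnmb+ animals 1 to 5. Only DBA/2J animal 4, both of whose eyes are graded mild, was below the highest Gpnmb+ animal. Scaled by TMM within the fit, the means were 10965 ± 7953 CPM in 12-month DBA/2J and 1971 ± 1766 CPM in Gpnmb+ (SD, n = 5 each), and the log2 fold change was 2.48 ± 0.58 (SE), a 5.56-fold higher level. By edgeR's quasi-likelihood test this had an unadjusted p of 0.000444, rank 17 of 12977 genes, and an adjusted p of 0.337, so Apoe did not pass the threshold of 0.05 over all genes. No gene did: 0 of 12977 (0%) were called and the smallest adjusted p was 0.313, while 675 genes had an unadjusted p under 0.05. Apoe was among the 2.75% of genes that were higher at that unadjusted threshold, where 2.45% were lower. DESeq2 called 108 genes and gave Apoe an adjusted p of 0.0249, and over 21 alternatives the adjusted p of Apoe ran from 0.0249 to 0.925.

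Single animals weighed on the size. Gpnmb+ animal 5 had 5054 and 5248 CPM in its eyes, where the next Gpnmb+ retina had 2604 CPM, and without this animal the log2 fold change was 3.15 (adjusted p = 0.135 by edgeR). Without DBA/2J animal 1, the highest, it was 2.00 (adjusted p = 0.738). Without the 5 retinas of fewer than 10000 genes, whose Apoe was 187 to 2604 CPM, it was 2.11 (adjusted p = 0.661).

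The second comparison set 12-month against 6-month DBA/2J mice of the same genotype, and it shares the 12-month animals with the comparison above. All 5 animals of 12 months had more Apoe than any of the 5 animals of 6 months, a separation that 1.43% of the 12977 genes showed. The TMM-scaled means were 10965 ± 7953 CPM at 12 months and 1500 ± 646 CPM at 6 months (SD, n = 5 each), with a log2 fold change of 2.87 ± 0.59 (SE), or 7.31-fold. Apoe ranked 4 by p (unadjusted p of 0.000119), and its adjusted p by edgeR, 0.252, was the smallest of the comparison but above 0.05. Again 0% of genes were called, 474 had an unadjusted p under 0.05, and Apoe was among the 2.1% that were higher at that threshold (1.55% were lower). DESeq2 called 62 genes, Apoe among them with an adjusted p of 0.000877, and without the filter on low counts edgeR called 2 genes, 1 of them Apoe (adjusted p = 0.0157).

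Other measures were also followed over this difference in age. Of 14 rod marker genes 13 had positive log2 fold changes at 12 over 6 months (median 1.22, against 0.01 over all genes), as had all 6 tested border macrophage markers (median 1.48). At an unadjusted p under 0.05 by edgeR, 1 of the 14 and 0 of the 6 were higher, where 2.1% of all genes were. The rod sums per animal overlapped, at 488 to 2733 CPM at 12 months and 219 to 2530 CPM at 6 months. Lyz2, a lysozyme gene of monocytes that microglia express as well, had 857 ± 409 CPM at 12 months and 160 ± 109 CPM at 6 months (SD, n = 5 each), a log2 fold change of 2.42 ± 0.54 (SE; adjusted p = 0.383 by edgeR). Mitochondrial genes took 1.43 to 3.34% of the counts of a retina at 12 months and 0.641 to 1.49% at 6 months. The part of these measures in the Apoe difference was not tested.

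The 6-month DBA/2J and 12-month Gpnmb+ animals differed in Apoe by less than their spread. The means were 1500 ± 646 CPM at 6 months and 1971 ± 1766 CPM in Gpnmb+ (SD, n = 5 each), with a log2 fold change of -0.39 ± 0.55 (SE) and an adjusted p of 1.00 by edgeR. The sign turned without Gpnmb+ animal 5, to a log2 fold change of 0.28. Of 12977 genes 0% were called there, with 489 at an unadjusted p under 0.05 and 57 called by DESeq2.

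Across the grades, Apoe was highest in moderate and severe retinas. The mild retinas had 2367 and 6410 CPM (both eyes of animal 4) and 4031 CPM (animal 5). The moderate retinas had 32974, 14728, 8421 and 8056 CPM, from animals 1, 2, 2 and 5. The severe retinas had 15550 CPM (animal 1) and 6870 and 8563 CPM (animal 3). Every moderate and severe retina was above every mild and every Gpnmb+ retina, while 1 of 3 mild retinas was above the highest Gpnmb+ one. Moderate and severe retinas overlapped. The gap to mild was narrow, from 6410 to 6870 CPM, and animal 5 gave both a mild and a moderate retina. The share of all genes with this separation of retinas was not computed, so it is not read as particular to Apoe.

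With eyes summed by animal and grade, the mild sums averaged 3637 ± 207 CPM (SD, n = 2), against 1937 ± 1764 CPM in Gpnmb+ (n = 5), a log2 fold change of 0.91 ± 0.63 (SE; adjusted p = 0.799 by edgeR). This value was 1.60 without Gpnmb+ animal 5 (adjusted p = 0.738 by edgeR) and 0.52 without the retinas of fewer than 10000 genes (adjusted p = 0.938). The moderate sums averaged 19671 ± 15771 CPM (SD, n = 3), a log2 fold change over Gpnmb+ of 3.34 ± 0.58, and Apoe ranked 1 of 15965 genes there (unadjusted p of 1.32e-05, adjusted p = 0.165 by edgeR). The severe sums averaged 12527 ± 6213 CPM (SD, n = 2), a log2 fold change of 2.69 ± 0.62, and Apoe ranked 2 (unadjusted p of 0.000308, adjusted p = 0.981 by edgeR). At 2 or 3 sums a grade, none of these passed the threshold.

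The counts of genes give the background for these ranks. In each of the mild, moderate and severe comparisons with Gpnmb+, 0% of genes were called by edgeR, while 865, 1353 and 682 had an unadjusted p under 0.05 and DESeq2 called 599, 296 and 280. Apoe was among the 4.76% of genes higher at the unadjusted threshold in moderate retinas and among the 3.07% higher in severe ones. Apoc1 and Apoc2, at or near 0 in Gpnmb+, could pass the filter on low counts only through DBA/2J sums, so no place among these genes is read for them. Every moderate sum of Apoe exceeded every Gpnmb+ animal, as for 2.51% of genes, and so did every severe sum, as for 5.68% of genes. Without Gpnmb+ animal 5 the moderate log2 fold change of Apoe was 4.04 and passed (adjusted p = 0.00807 by edgeR), and without DBA/2J animal 5 it was 3.69 (adjusted p = 0.0403). Without DBA/2J animal 1 it was 2.47 (adjusted p = 0.855 by edgeR). The severe value was then 2.06, with a single severe sum left.

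Set against mild sums directly, moderate sums had a log2 fold change of Apoe of 2.44 ± 0.79 (SE; unadjusted p of 0.00618, adjusted p = 0.773 by edgeR) and severe sums one of 1.78 ± 0.81 (unadjusted p of 0.0401, adjusted p = 1.00). Both comparisons called 0% of genes, with 829 and 445 genes at an unadjusted p under 0.05 and 500 and 353 called by DESeq2. A trend over the grade scores 0, 1 and 2 within the 7 sums of 12-month DBA/2J gave 0.89 ± 0.61 (log2 per step, SE; unadjusted p of 0.173, adjusted p = 1.00), with 0% of 13394 genes called, 247 at an unadjusted p under 0.05 and 32 called by DESeq2. Without DBA/2J animal 1 the moderate to mild value was 1.60 and the severe to mild value 1.19, the latter with a single severe sum left. The trend was 1.47 without DBA/2J animal 3, 0.41 without animal 4 and 0.34 without animal 5, each of which leaves a grade with a single sum.

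The eyes of the same animal were also compared. In DBA/2J animal 1 the right eye, graded moderate, had 2.12 times the Apoe of the left eye, graded severe. In DBA/2J animal 5 the left eye, graded moderate, had 2.00 times the Apoe of the right eye, graded mild. In the 3 animals whose eyes shared a grade the higher eye had 1.75, 1.25 and 2.71 times the level of the other. The ratio was 1.25 to 2.71 over 5 DBA/2J animals and 1.04 to 8.84 over 4 Gpnmb+ animals, and the ratios of the 2 animals with eyes of unlike grade lay within the range of the 3 others. The ratio of 2.71, in DBA/2J animal 4, and that of 8.84, in Gpnmb+ animal 2, each involved the shallowest library of the group, with 1706745 and 977873 counts.

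Apoc2, the lipoprotein lipase cofactor, was at 0 in most retinas and was seen mostly in 12-month DBA/2J. It had counts in 5 of 10 retinas of 12-month DBA/2J (4 of 5 animals), in 1 of 5 retinas at 6 months and in 0 of 9 Gpnmb+ retinas. The share of all genes with such a pattern of counts was not computed, for Apoc2 or for the other C genes. With 5 Gpnmb+ retinas below 10000 genes, the pattern is not read as particular to the C genes. The levels in the 5 DBA/2J retinas were 10.4 CPM (animal 1, right, moderate), 3.36 CPM (animal 2, right, moderate), 4.43 CPM (animal 3, left, severe), 6.64 CPM (animal 5, right, mild) and 12.6 CPM (animal 5, left, moderate). The 6-month retina was that of animal 5, with 3.00 CPM. Animal 5 of the 12-month DBA/2J group was the only one with Apoc2 in both eyes, and its eyes differed 1.89-fold, the moderate one being higher.

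Pooled over a group, Apoc2 had 464 counts (4.66 CPM) in 12-month DBA/2J, 54 counts (0.726 CPM) at 6 months and 0 counts in Gpnmb+, where 3 counts over the group correspond to 0.0378 CPM. The pooled level was therefore at least 123-fold higher in 12-month DBA/2J than in Gpnmb+, and 6.42-fold higher than at 6 months, where it rests on 1 retina. This bound covers counting error only and not the spread between retinas, 5 of which were at 0 in 12-month DBA/2J. Animal 5 gave 282 of the 464 counts, and without it, a value added after the data were seen, the bound was 67.6-fold. Per animal, TMM-scaled levels averaged 3.75 ± 3.46 CPM in 12-month DBA/2J, 0.545 ± 1.22 CPM at 6 months and 0 in Gpnmb+ (SD, n = 5 each). The unadjusted p of edgeR's quasi-likelihood test was 0.00478 against Gpnmb+ (adjusted p = 0.567), where Apoc2 passed the filter on low counts only through DBA/2J animals, and 0.191 against 6 months (log2 fold change 2.76 ± 2.01, SE; adjusted p = 1.00). A fitted fold change against Gpnmb+, where each library was at 0, depends on the prior count and is not given. In the fit by grade the mean was 3.12 ± 4.41 CPM in mild (n = 2), 8.76 ± 5.46 CPM in moderate (n = 3) and 1.48 ± 2.09 CPM in severe sums (SD, n = 2), and the trend over grades was -0.54 ± 2.20 (log2 per step, SE; adjusted p = 1.00 by edgeR).

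Apoc1, whose product slows lipoprotein uptake, had fewer counts still and did not pass the filter on low counts for the comparison of groups, so it has no test there. It had counts in 4 of 10 retinas of 12-month DBA/2J, from 4 animals, with 7.0 CPM (animal 1, left, severe), 0.738 CPM (animal 2, right, moderate), 1.20 CPM (animal 3, left, severe) and 0.948 CPM (animal 5, left, moderate). At 6 months 2 of 5 retinas had counts, 0.289 CPM in animal 1 and 0.783 CPM in animal 2, and in Gpnmb+ 1 of 9 retinas, the left eye of animal 5, had 4 counts or 0.269 CPM. The pooled counts were 112 in 12-month DBA/2J, 16 at 6 months and 4 in Gpnmb+, of which 64 came from 1 severe retina.

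The fit by grade, which kept Apoc1, put it at 0 in both mild sums, 0.479 ± 0.453 CPM in moderate (SD, n = 3) and 4.21 ± 4.82 CPM in severe sums (n = 2), against 0.0263 ± 0.0588 CPM in Gpnmb+ (n = 5). The spread of the severe sums exceeded their mean. A fitted fold change or trend against sums at or near 0 depends on the prior count and is not given, and Apoc1 passed the filter there only through the sums that held it.

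Apoc4, the remaining C gene of the cluster, had counts in 5 of 10 retinas of 12-month DBA/2J (390 counts), 0 of 5 at 6 months and 1 of 9 in Gpnmb+ (35 counts, right eye of animal 5). At least 1 of Apoc1, Apoc2 and Apoc4 was found in 7 of 10 retinas of 12-month DBA/2J, from all 5 animals, in 3 of 5 retinas at 6 months and in 2 of 9 Gpnmb+ retinas. What other sets of genes at so low a level would give was not computed. All 3 were found together in 2 retinas, both moderate, namely the right eye of animal 2 and the left eye of animal 5. The Gpnmb+ retinas with a C gene were the eyes of animal 5, the Gpnmb+ animal with the highest Apoe. Each eye held a different C gene, with 4 counts of Apoc1 in the left and 35 counts of Apoc4 in the right. Their libraries held 14845259 and 14004414 counts in that order, and the left one was the deepest of Gpnmb+. Per length, in TPM, Apoe exceeded Apoc1 by 498 to 4369 times in the 7 retinas with Apoc1 (median 1769) and Apoc2 by 187 to 1625 times in the 6 retinas with Apoc2 (median 510). In bulk RNA of sorted cells, fewer cells that express a gene and less RNA per cell cannot be told apart.

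**Figure D2:**
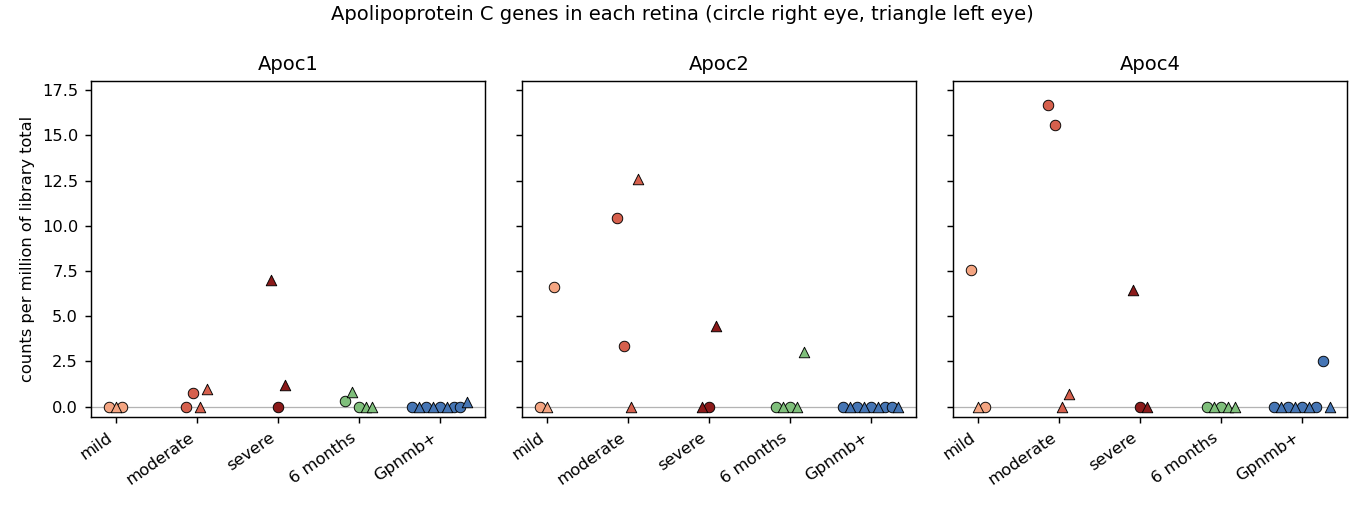
Apoc1, Apoc2 and Apoc4 in each of the 24 retinas, in CPM of the library total on a linear axis, with the 12-month DBA/2J retinas split into mild, moderate and severe, then 6-month DBA/2J (6 months) and 12-month Gpnmb+ retinas. Circles are right eyes and triangles left eyes; Apoc2 is at 0 in all 9 Gpnmb+ retinas and reaches 12.6 CPM in a moderate retina.

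Genes around the cluster were examined next. Within 100 kb of the span the annotation lists 15 genes other than the members, all present in the files, and 7 were abundant enough to be tested. None of the 7 had an unadjusted p under 0.05 in either comparison. Over all genes, 2.75% were higher and 2.45% lower at that threshold against Gpnmb+, and 2.1% and 1.55% against 6 months. With shares so low, none among 7 genes is not read as a result about the neighbours. Their log2 fold changes ran from -0.39 (Clptm1) to 0.96 (Gemin7) against Gpnmb+ and from -1.06 (Clptm1) to 0.81 (Gemin7) against 6 months. Tomm40, the mitochondrial import channel gene just upstream of Apoe, had 52.0 ± 30.2 CPM in 12-month DBA/2J, 52.2 ± 18.3 CPM at 6 months and 44.3 ± 34.7 CPM in Gpnmb+ (SD, n = 5 each). Its log2 fold change was 0.23 ± 0.88 (SE) against Gpnmb+. Relb, an NF-kB subunit gene, had 61.2 ± 18.9 CPM in 12-month DBA/2J and 69.4 ± 72.4 CPM in Gpnmb+ (SD, n = 5 each). The standard errors of these less abundant genes, at least 0.61, are larger than that of Apoe, and a difference in response between them and Apoe was not tested.

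**Figure D3:**
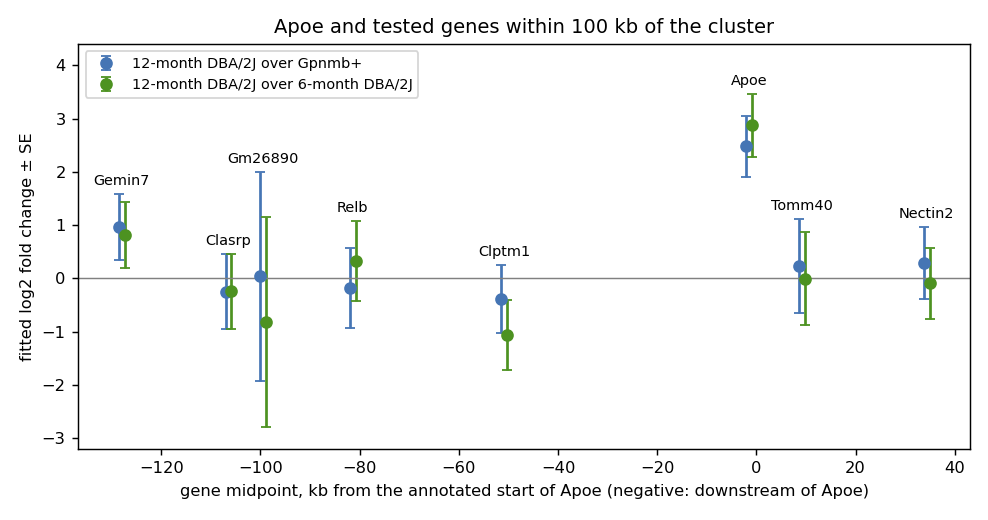
Fitted log2 fold changes with standard errors (bars) of Apoe and the 7 tested neighbours, by the distance of each gene's midpoint from the annotated start of Apoe in kb. Blue is 12-month DBA/2J over Gpnmb+ and green is 12-month over 6-month DBA/2J; Apoe stands at 2.48 and 2.87, the neighbours between -1.06 and 0.96, and Apoc2, at 0 in Gpnmb+, is left out.

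Of 16 other apolipoprotein genes, 11 had any counts and 0 were abundant enough to be tested. The highest single values were 16.7 CPM of Clu, a chaperone-like apolipoprotein, in 1 retina of 12-month DBA/2J, and 16.7 CPM of Apoc4.

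Genes that act with apolipoprotein E were described by 3 lists, and none of their members passed the adjusted threshold. Of 17 receptor and partner genes 13 were tested, and 9 had positive log2 fold changes in 12-month DBA/2J over Gpnmb+ (median 0.38, against 0.05 over all genes); at an unadjusted p under 0.05, 1 was positive (2.75% of all genes) and 0 negative (2.45%). That one was Trem2, a microglial receptor that binds apolipoprotein E and other lipids, with 1609 ± 410 CPM in 12-month DBA/2J and 1239 ± 188 CPM in Gpnmb+ (SD, n = 5 each), a log2 fold change of 0.38 ± 0.18 (SE; adjusted p = 0.954 by edgeR). Tyrobp, its signalling adaptor, had a value of 0.59 ± 0.29, and Sorl1, a sorting receptor, one of 1.32 ± 1.09. Against 6 months 3 of the 13, Trem2, Tyrobp and the lipoprotein receptor gene Vldlr, had a positive value with an unadjusted p under 0.05 (2.1% of all genes) and 0 a negative one (1.55%), with a median of 0.36, against 0.01 over all genes. The smallest adjusted p of the list there was 0.720 by edgeR, that of Vldlr. Vldlr had 14.3 ± 13.4 CPM at 12 months and 0.0101 ± 0.0225 CPM at 6 months (SD, n = 5 each). A fold change against a level so near 0 depends on the prior count, so that of Vldlr and its place in the count are not read.

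Of 15 genes of lipid loading and lipid handling 11 were tested, 10 with positive log2 fold changes over Gpnmb+ (median 0.74, against 0.05 over all genes). At an unadjusted p under 0.05, 2 were positive (2.75% of all genes) and 0 negative (2.45%). The share of all genes with a positive value was not computed, here or for the other lists. Npc2, which hands cholesterol out of lysosomes, had 785 ± 164 CPM in 12-month DBA/2J and 470 ± 152 CPM in Gpnmb+ (SD, n = 5 each; log2 fold change 0.74 ± 0.24, SE; adjusted p = 0.567 by edgeR). Soat1, which esterifies cholesterol for storage, had 98.97 ± 30.4 CPM in 12-month DBA/2J and 50.03 ± 23.6 CPM in Gpnmb+ (log2 fold change 0.98 ± 0.40; adjusted p = 0.790). Npc1, the lysosomal partner of Npc2, had a value of 0.91 ± 0.58. Ch25h, the cholesterol 25-hydroxylase gene, had 16.9 ± 18.8 CPM in 12-month DBA/2J and 1.31 ± 2.92 CPM in Gpnmb+. The size of its value, 3.66 ± 2.25, is not read at such low levels. Against 6 months the median of the list was 0.13, against 0.01 over all genes. Of the 11, 2 had a positive value with an unadjusted p under 0.05 (2.1% of all genes) and 0 a negative one (1.55%). They were Npc2 (0.55 ± 0.24) and Ch25h, and the smallest adjusted p was 1.00 by edgeR. Ch25h had 0.182 ± 0.406 CPM at 6 months (SD, n = 5), so its fold change depends on the prior count and its place in the count is not read. Soat1 had 97.8 ± 33.3 CPM at 6 months (SD, n = 5), a value of 0.02 ± 0.40 at 12 over 6 months, and Npc1 one of -0.37 ± 0.57.

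Of 15 genes for transcription factors and cofactors of Apoe 12 were tested, 5 with positive log2 fold changes over Gpnmb+ (median -0.06, against 0.05 over all genes). At an unadjusted p under 0.05, 0 were positive (2.75% of all genes) and 1 was negative (2.45%). That gene, Rxra, the retinoid X receptor partner of LXR, had 8.08 ± 6.21 CPM in 12-month DBA/2J and 28.5 ± 16.1 CPM in Gpnmb+ (SD, n = 5 each; log2 fold change -1.82 ± 0.80, SE; adjusted p = 0.885 by edgeR). The corepressor gene Ncor1 had a value of -0.66 ± 0.32, and Srebf2, the activator of cholesterol synthesis genes, one of -1.30 ± 1.08. Against 6 months 0 of the 12 had a positive value with an unadjusted p under 0.05 (2.1% of all genes). A negative one was found for 2 (1.55% of all genes), among them Spi1, which encodes PU.1. The list had a median of -0.15, against 0.01 over all genes, and a smallest adjusted p of 1.00 by edgeR.

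The genes whose level most closely followed Apoe over the 15 animals were taken, among the 7036 whose log2 CPM averaged 4 or more, by Spearman's rho. They were Npl (0.93), H2-Q10 (0.91), Rab3il1 (0.90), Gm8909 (0.90), H2-D1 (0.87), Il1b (0.86), Ms4a6c (0.86) and H2-K2 (0.85). Npl encodes a sialic acid lyase, Il1b the cytokine interleukin 1 beta and H2-D1 a class I major histocompatibility chain. Npl averaged 202 CPM in 12-month DBA/2J, 97.7 CPM at 6 months and 122 CPM in Gpnmb+, and H2-D1 averaged 1707, 843 and 893 CPM in the same order. The class I genes H2-Q10, Gm8909, H2-D1 and H2-K2 have near-identical copies, among which counts could be split. The points include the 3 groups and share library depth, so these correlations only describe the order of animals. Apoc2, with its many values at 0, had a rho of 0.63 with Apoe.

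Other cell types that could carry Apoe or C gene transcripts through the sort were followed by their markers. Müller glia and astrocyte markers, 10 genes, summed to between 259 and 392 CPM per animal in 12-month DBA/2J, 293 and 441 at 6 months, and 152 and 549 in Gpnmb+. Their ranges overlapped, and the most abundant were Glul, Slc1a3 and Kcnj10, while Gfap was at 0 in all 3 groups and Sox9 at 0 at 6 months and in Gpnmb+. Monocyte markers, 8 genes, summed to between 474 and 1265 CPM in 12-month DBA/2J, 50.3 and 365 at 6 months, and 123 and 536 in Gpnmb+, nearly all of it Lyz2, which microglia express as well. Without Lyz2, a sum added after its values were seen, they came to 1.69 to 41.6 CPM, 6.89 to 34.96 CPM and 1.16 to 24.1 CPM in that order, and Ly6c2 was at 0 in both DBA/2J groups. Since the cells were gated as Ly6c-, the absence of Ly6c2 cannot show whether recruited cells were present.

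Border macrophage markers, 9 genes led by Mrc1, Folr2 and Ms4a7, summed to between 16.1 and 210 CPM per animal in 12-month DBA/2J, 2.85 and 130 at 6 months, and 1.02 and 127 in Gpnmb+. Per retina they were highest in 2 moderate retinas with high Apoe, the right eyes of DBA/2J animals 1 and 2, at 435 and 306 CPM, and so were monocyte markers, at 2337 and 1406 CPM. The right eye of animal 1, which had the highest Apoe of all, also had 6145 CPM of rod markers and a microglia identity sum of 16506 CPM, the lowest of the DBA/2J retinas. The part of these cells in the Apoe level of the moderate retinas was not tested. In the 3 severe retinas, where Apoe was 6870 to 15550 CPM, the border macrophage sum was 26.0 to 65.1 CPM, within the 0 to 160 CPM of Gpnmb+ retinas, and the microglia identity sum was 36132 to 39737 CPM. Their monocyte marker sum was 391 to 681 CPM, above that of 7 of the 9 Gpnmb+ retinas (median 151 CPM, highest 739 CPM), and its part in their Apoe level was not tested. Rod markers, 14 genes, summed to between 488 and 2733 CPM per animal in 12-month DBA/2J, 219 and 2530 at 6 months, and 386 and 10458 in Gpnmb+, with no marker at 0 in any group.

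**Figure D4:**
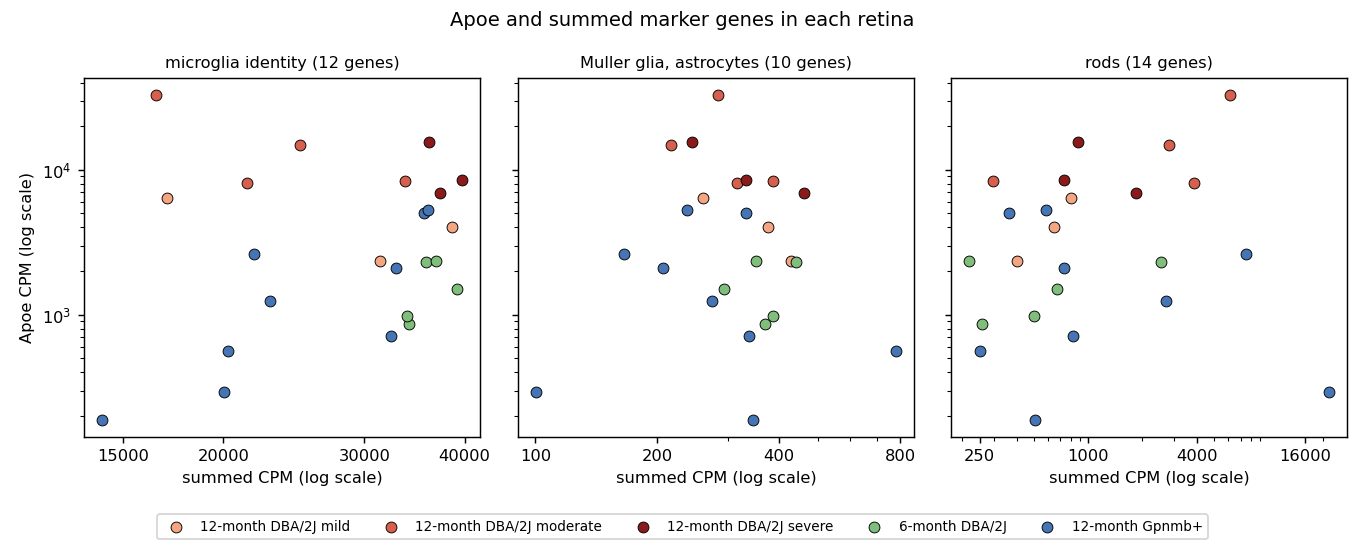
Apoe in CPM against the summed CPM of microglia identity, Müller glia with astrocyte, and rod marker genes, for each of the 24 retinas on log axes, coloured by grade or group. The severe retinas join Apoe of 6870 CPM or more to microglia sums of at least 36132 CPM, and Müller sums overlap between the groups.

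Pigment epithelium, endothelial, inner neuron and red blood cell markers were low in every group. Their highest sums per animal were 21.6, 29.5, 24.4 and 1.92 CPM in 12-month DBA/2J, 14.9, 47.3, 37.3 and 0.984 CPM at 6 months, and 8.46, 116, 95.9 and 11.7 CPM in Gpnmb+. Nothing in the labels says whether retinas of 1 animal were handled separately, and the labels name no sequencing batch, so within-batch values could not be computed.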

How the data were processed

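RNA of sorted microglia was sequenced per retina. The authors deposited, per the file headers, an expected count per gene, an estimated number of reads that need not be whole, and a TPM, which is scaled for transcript length. Salmon 1.4.0, R 4.0.3, DESeq2 1.30.1 and the mm10 build stand in the submitters' processing notes with no role given; the aligner is not given in the sources used here. The 24 value columns of a deposited FPKM table were not used. Of 47729 IDs, 47224 matched a symbol of the GRCm38 annotation. The 3 genes, the gene lists and the tests were chosen with earlier results of these data known.

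Expected counts were rounded and summed over the eyes of an animal, or by animal and grade for the grades, and n counts animals or sums. DBA/2J animals 1 and 5, with eyes of 2 grades, entered the grade fits with 2 sums each, taken as independent. CPM per retina and per animal are counts scaled to a library total of 1000000, and TMM-scaled CPM belong to a fit. Genes were tested with edgeR 4.0.16 (R 4.3.3): quasi-likelihood F test, TMM, filterByExpr (minimum count 10, minimum total 15), two-sided, adjusted by Benjamini and Hochberg over all genes of a fit (15 animals in the comparison of groups, 17 sums in the fit by grade, 7 sums in the trend). The script was tested on simulated counts. The SE of a log2 fold change was derived from the F statistic, as the absolute log2 fold change divided by the square root of F. A count of 0 was bounded at 3 counts. No pair of retinas was a duplicate: over 91 pairs within groups, chi-square per degree of freedom was 88.5 or more, and 1.13% or less of the values matched exactly.

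Named were the 3 members, annotated genes within 100 kb, the 4 members of each pathway list with the smallest p against Gpnmb+, and the 8 genes closest to Apoe by Spearman's rho. The values of some genes that this rule names are not reported here. Clu and Apoc4 were named after their values were seen. The same likeness search for Apoc1 was not possible, since it did not pass the filter of the group fit. Alternatives were DESeq2 1.42.0, RLE scaling, no filter, at least 50 counts in 5 sums, retinas in place of animals, with and without a random effect of the animal (limma 3.58.1), the deeper retina of each animal, a fit of the compared groups only, dropping retinas below 20% of the median total or below 10000 genes, blocking by animal number, and dropping each animal in turn. Dropping each 12-month DBA/2J animal from the pooled Apoc2 bound was added after the data were seen.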

Additional observations from a re-analysis of the deposited data

Results flagged for a closer look

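In 3 of 9 groups of animals examined (3 genes in 3 groups), a single animal stood apart from the other 4 by Dixon's test at the 95% level, which chance flags in about 1 in 20 groups. All 3 concern C genes with few counts. Apoc1 was 4.53 CPM in 12-month DBA/2J animal 1, where the next animal had 0.781 CPM, and it came from the left eye, graded severe. Apoc1 was 0.139 CPM in Gpnmb+ animal 5, from 4 counts, where the other 4 animals were at 0. Apoc2 was 3.00 CPM in 6-month DBA/2J animal 5, where the other 4 animals were at 0. In a group with 4 animals at 0 any count sets the animal apart. No Apoe value was set apart in this way.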

How the results depend on the processing

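Of 155 values of Apoe under alternatives, 141 kept their sign and their side of the threshold, as did 140 of 143 of Apoc2. Many of these Apoc2 values are against Gpnmb+, where every retina was at 0. Their sign could not turn under any alternative, so the Apoc2 tally does not measure how stable the sign is. DESeq2 called 108, 62 and 57 genes for the groups (12-month DBA/2J to Gpnmb+, 12 to 6 months, 6-month DBA/2J to Gpnmb+), 599, 296 and 280 in mild, moderate and severe against Gpnmb+, 500 and 353 in moderate and severe against mild, and 32 in the trend, where edgeR called 0 in each. With it Apoe passed the threshold against Gpnmb+ (2.42) and 6 months (2.87) and in moderate (3.42) and severe (2.60) retinas against Gpnmb+. With no filter on low counts edgeR called 2 genes in 12 against 6 months, 31, 33 and 10 in mild, moderate and severe against Gpnmb+, 15 and 5 in moderate and severe against mild, and 6 in the trend. Apoe then passed in 12 against 6 months (2.89), in mild (0.87), moderate (3.29) and severe (2.69) against Gpnmb+, and in moderate (2.42) and severe (1.82) against mild; the cause was not tested. With each retina as a replicate, 1 gene was called in moderate against Gpnmb+, Apoe (3.22). Retinas with a random animal effect gave 8, 5 and 40 called genes for the groups, without Apoe.

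The animal number as a replicate block gave 4 called genes in moderate and 1 in severe against Gpnmb+ and turned Apoc2 in severe against mild to 1.58. Same-numbered animals did not deviate together (correlations of -0.02 to 0.08 over pairs), so the numbers do not pair the animals. With the block Apoe was 2.45 against Gpnmb+ (adjusted p = 0.552 by edgeR) and 2.76 against 6 months (adjusted p = 0.411).

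Leaving out each animal gave 0 to 1 called genes against Gpnmb+, 0 to 2 in mild, 0 to 4 in moderate against Gpnmb+ and 0 to 3 in moderate against mild. In the fits by grade, a single severe sum was left without DBA/2J animal 1 or 3, and a single mild sum without animal 4 or 5. Apoe was 2.00 to 3.15 against Gpnmb+, 2.39 to 3.10 against 6 months, 2.47 to 4.04 in moderate retinas against Gpnmb+, and -0.64 to 0.28 between 6-month DBA/2J and Gpnmb+, turning only without Gpnmb+ animal 5. Apoc2 was -8.44 to 7.49 in severe against mild, turning to 7.49 without DBA/2J animal 5, and -1.48 to 0.23 in the trend, turning without DBA/2J animal 1. Apoc2 in 12 against 6 months was 9.01 without 6-month animal 5, which leaves that group at 0. In the same way mild was at 0 without DBA/2J animal 5, and severe was at 0 without DBA/2J animal 3. Fold changes against a group at 0, such as 7.49 and 9.01, depend on the prior count, so their size is not read. No value could be had where both groups were at 0: Apoc2 in 6-month DBA/2J against Gpnmb+ without 6-month animal 5, in severe without DBA/2J animal 3 and in mild without DBA/2J animal 5, and Apoc1 in mild without Gpnmb+ animal 5. The lower bound of pooled Apoc2 in 12-month DBA/2J over Gpnmb+ was 67.6 to 144-fold, a check added after the data were seen. Many retinas had 0 counts of the C genes, but a 12-month DBA/2J retina with Apoc2 had 41 to 199 counts of it. In DBA/2J animal 1, Apoc2 had 52 counts in the right eye, with a library of 4983359 counts. It had 0 in the left eye, with 9144724 counts. The part of depth in which retinas show the C genes was not tested.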
